A study of Populus euphratica with 12 samples.

Results

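The 30 most abundant long non-coding RNAs (lncRNAs) of juvenile *Populus euphratica* leaves were taken as the transcripts with the highest mean FPKM over 12 libraries, out of 4460 lncRNAs listed. FPKM is the number of sequenced fragments per kilobase of transcript and scaled to the number of fragments in the library, so levels of different transcripts can be set beside each other. *P. euphratica* is a desert poplar whose leaves change shape as the tree ages. The groups were linear leaves (Li) of trees aged 0 to 3 years, lanceolate leaves (La) of trees aged 4 to 6 years, ovate leaves (Ov) of trees aged 8 to 12 years and broad-ovate leaves (Bo) of trees over 20 years old, with 3 libraries each, numbered 1 to 3. All leaves were collected in Alar, Xinjiang, and no allele or treatment is named. Leaf shape and tree age changed together in this design and cannot be told apart. The study describes the libraries of a group as biological replicates, with leaf measurements for each. The p-values set a difference between groups against the spread between libraries of a group, pooled over the 4 groups in the main fit. Whether each library came from a separate tree is not given in the sources used here.

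lncRNAs are transcripts without a recognised protein product. Some act at chromatin, some as the antisense strand of another gene, and some as decoys that bind microRNAs, and in plants several take part in flowering and in responses to the environment. They are, as a rule, less abundant than mRNAs and vary more between samples and tissues. RefSeq, the annotation used in the study, gives no product or role for any of the 30, so they are described by their transcript and gene identifiers. No sequence is shown, since transcript sequences were not used here.

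Because the members were selected on their mean FPKM, their high level is a description and carries no test. The lowest mean inside the list was 213.4 FPKM (XR_838961.1, rank 30). The transcripts just outside were XR_842536.1 with 206.8 FPKM, XR_841712.1 with 206.6 FPKM and XR_844512.1 with 193.2 FPKM. The gap at the limit was therefore small beside the spread of these transcripts, which for XR_838961.1 reached from 88.4 to 375.0 FPKM among libraries. Of the 30 members, 28 were annotated in RefSeq (identifiers beginning with XR_) and 2 had been assembled by the authors (TCONS_). The 30 transcripts belonged to 27 genes, since LOC105117014 gave 3 members and LOC105125224 gave 2. All 30 were above 0 FPKM in all 12 libraries and all passed the filter of a mean of at least 0.5 FPKM, which 1391 of the lncRNAs listed passed.

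Some facts of the whole series touch these values. The read depth behind an FPKM is unknown here, and the FPKM of all lncRNAs together made up 4.64% to 6.96% of all mRNA and lncRNA FPKM in a library. La3 and Ov3 stood apart from the other libraries of their groups in several members and resembled each other, and they are named wherever a result rests on them. Of the leaf markers looked for, 3 of 30 symbols were matched, and the leaf genes PSBW, PRK and CA1 were at 429 to 1040, 109 to 199 and 22.3 to 79.3 FPKM. Of the meristem markers 4 of 8 were matched, and KNAT1 lay between 1.02 and 24.2 FPKM, with WUS at 0 to 0.32 FPKM. CUC2 was at 0.75 to 5.75 FPKM and CUC3 at 0.18 to 1.32 FPKM. The meristem sum was 4.66 to 14.3 FPKM in Li and 6.43 to 14.3 FPKM in La. It was 10.7 to 31.3 FPKM in Ov and 2.23 to 6.09 FPKM in Bo. The leaf sum was 726 to 1318 FPKM in Li and 612 to 1051 FPKM in La. It was 569 to 885 FPKM in Ov and 602 to 712 FPKM in Bo. Without overlap, Bo lay below Li in the leaf sum and below La and Ov in the meristem sum. Fewer than 3 root or xylem markers were matched, so that check was void. In leaf tissue as a whole, fewer cells of a type and less RNA per cell cannot be told apart.

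The 30 members held most of the lncRNA FPKM in every library. Their share was 70.0%, 72.0% and 74.0% in Li1, Li2 and Li3. It was 71.9%, 74.1% and 64.7% in La1, La2 and La3. In Ov1, Ov2 and Ov3 it was 68.6%, 75.4% and 73.1%, and in Bo1, Bo2 and Bo3 it was 72.1%, 72.4% and 74.3%. La3 had the lowest share and Ov2 the highest, and the groups overlapped. By group, Li had a share of 72.0 ± 1.97%, La 70.2 ± 4.90%, Ov 72.4 ± 3.46% and Bo 72.9 ± 1.17% (SD, n = 3 each). The group means thus lay closer together than the libraries of La or of Ov did. No test was run on this share, because the same values chose the members. Without La3 and Ov3, the share over the remaining 10 libraries was 72.5 ± 2.07% (68.6% to 75.4%).

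**Figure D1:**
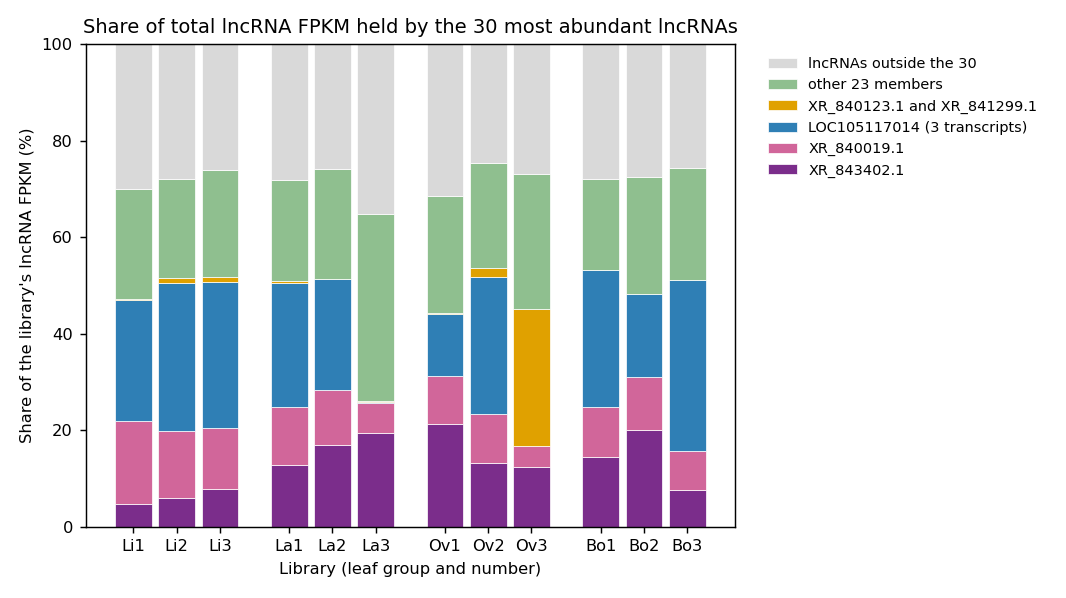
Share of each library's total lncRNA FPKM (vertical axis, in %) held by the members, for the 12 libraries in the order Li, La, Ov, Bo. The coloured parts add up to between 64.7% (La3) and 75.4% (Ov2), but their make-up differs in La3 and Ov3, where the 3 transcripts of LOC105117014 are near 0, and in Ov3, where XR_840123.1 and XR_841299.1 hold 28.3%.

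In FPKM, the sum of the members varied more between libraries than the sum of all other lncRNAs. The members were chosen by level and make up most of the total, so the total follows them by construction. The total was lowest in Ov1 (36316 FPKM) and highest in Bo3 (50255 FPKM). The members together had 31109 ± 4600 FPKM over the 12 libraries (SD, n = 12), from 23589 to 37315 FPKM. All other lncRNAs together had 12015 ± 707 FPKM, from 11074 to 13208 FPKM. For the other lncRNAs, Li had 12130 ± 281 FPKM, La 11920 ± 890 FPKM, Ov 12145 ± 945 FPKM and Bo 11864 ± 945 FPKM (SD, n = 3 each), and these means differed by less than the spread between libraries.

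A handful of transcripts made up much of this share. Between 5 and 10 lncRNAs were enough to reach 50% of the lncRNA FPKM of a library, with 10 needed in La3, 7 in Ov1 and 5 or 6 in the other 10 libraries. Each library's own 30 most abundant lncRNAs held 73.6 ± 2.31% of its lncRNA FPKM (SD, n = 12). Among mRNAs, for comparison, the own 30 most abundant held 10.7 ± 1.14%, and between 1192 and 1663 mRNAs were needed to reach 50%. The lists of lncRNAs and mRNAs differ in length, with 49676 mRNAs listed. The single most abundant lncRNA of a library held from 12.8% (La1) to 21.3% (Ov1) of its lncRNA FPKM. It was XR_843402.1 in 6 libraries (La1, La2, La3, Ov1, Bo1 and Bo2), XR_840019.1 in Li1 and Li2, XR_840660.1 in Li3 and Ov2, XR_840661.1 in Bo3 and XR_840123.1 in Ov3.

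Set among all mRNAs and lncRNAs by mean FPKM, 3 members were in the 10 most abundant transcripts, 5 in the 20 most abundant, 10 in the 50 most abundant and all 30 in the 500 most abundant. Their ranks ran from 3 (XR_843402.1) to 485 (XR_838961.1). Rank was steady for some members and not for others. In the own 30 most abundant lncRNAs of each library, 12 members were present in all 12 libraries and 24 in at least 9 libraries, while XR_840123.1 was present in 2 libraries only and XR_841299.1 in 4. From 22 (La3) to 28 (Ov2) members were in a library's own list, and 26 members were in the list of Li, 26 in that of La, 27 in that of Ov and 26 in that of Bo when group means were ranked.

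**Figure D2:**
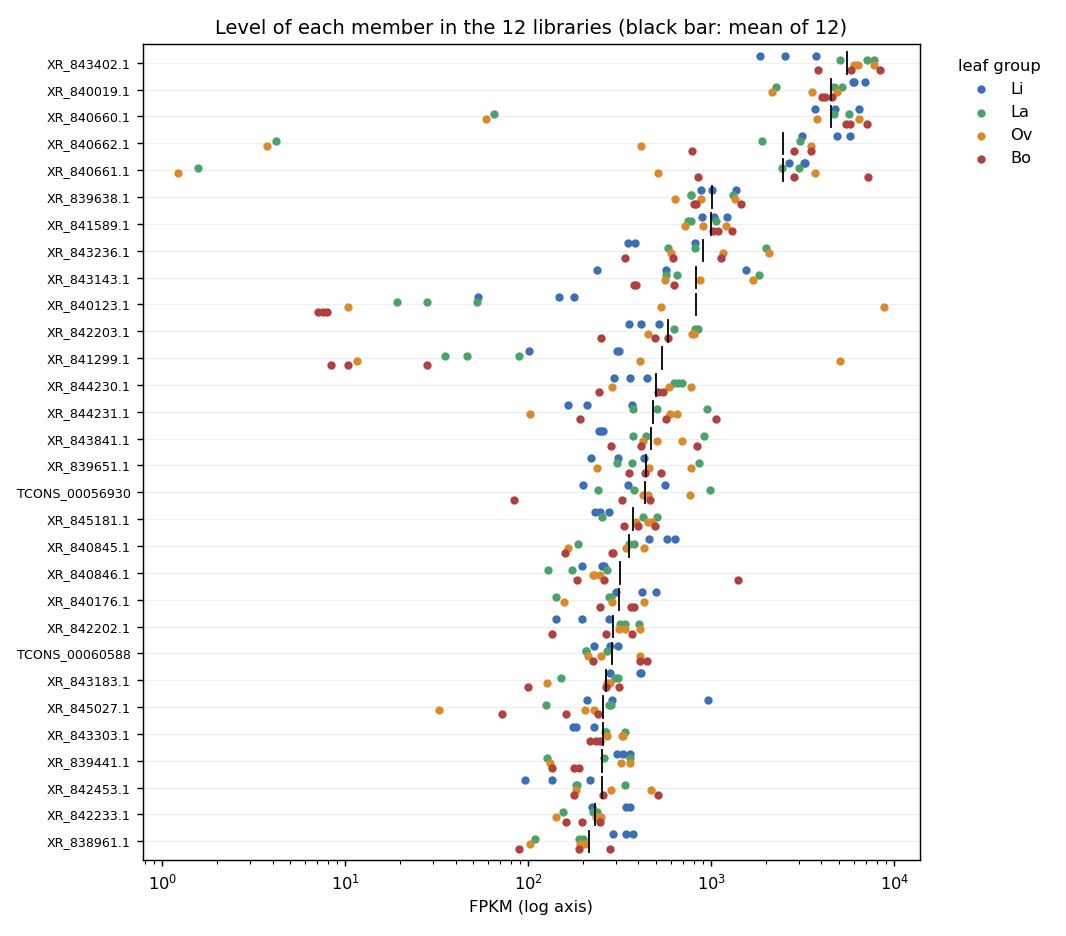
FPKM of each of the 30 members (log axis) in the 12 libraries, 1 point per library coloured by leaf group, with the most abundant member at the top and a black bar at its mean. Most members stay within a few-fold, while the transcripts of LOC105117014 (XR_840660.1, XR_840661.1 and XR_840662.1) reach far to the left in La3 and Ov3, and XR_840123.1 and XR_841299.1 reach far to the right in Ov3.

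Between leaf groups, no member passed the threshold in any of the 6 pairs of groups or in the F test over the 4 groups. The test was limma on log2(FPKM + 1) across all 1391 lncRNAs, with p-values adjusted over all of them by the Benjamini-Hochberg method and called at an adjusted p under 0.05. Calls were rare among all lncRNAs tested too. Of the comparisons with Li, La/Li had 0.0719% called, Ov/Li 0% and Bo/Li 1.01%. Of the others, Ov/La had 0% called, Bo/La 0.144% and Bo/Ov 0.216%, and the F test called 0.503%. The number of members with an unadjusted limma p under 0.05 was 4 for La/Li (9.2% of all lncRNAs tested), 6 for Ov/Li (13.9%) and 3 for Bo/Li (20.1%). Between the older groups Ov/La had 0 such members (2.88%), Bo/La 1 (11.4%) and Bo/Ov 2 (11.2%), and the F test gave 2 such members (15.3%). No other tool was run.

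As a description that needs no model, members were counted whose libraries did not overlap between groups. For La/Li these were 14 of 30 (7 higher and 7 lower in La), where 18.9% of all lncRNAs tested did not overlap (10.1% higher and 8.84% lower). For Ov/Li they were 9 (5 higher and 4 lower in Ov) against 22.7% (13.4% higher and 9.35% lower). For Bo/Li they were 9 (3 higher and 6 lower in Bo) against 28.3% (19.1% higher and 9.2% lower). In the pair Ov/La no member was without overlap, where the share of all lncRNAs was 6.97%. Bo/La had 5, all lower in Bo, against 16.4% (5.18% lower), and Bo/Ov had 2, both lower in Bo, against 13.6% (4.67% lower). The members' count for Bo/Li, 9 of 30, was near the share of all lncRNAs. The median log2 change of the members was -0.07 for Bo/Li, where the median of all lncRNAs tested was 0.22, and -0.28 for La/Li, where it was 0.05. For Ov/Li the median of the members was 0.25 and that of all lncRNAs 0.11, and 14, 13 and 16 of the 30 members had a positive change for Bo/Li, La/Li and Ov/Li, where 62%, 53.6% and 56.5% of all lncRNAs tested did.

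XR_843402.1 (LOC105131289) had the highest mean of all lncRNAs, 5508 FPKM. It was at 1851, 2521 and 3720 FPKM in Li1, Li2 and Li3, at 5051, 7769 and 7077 FPKM in La1, La2 and La3, at 7742, 6343 and 6026 FPKM in Ov1, Ov2 and Ov3, and at 5780, 8370 and 3843 FPKM in Bo1, Bo2 and Bo3. The Li libraries were the 3 lowest of the 12, although Bo3 lay only just above Li3. Its log2 change was 1.14 ± 0.35 (SE) for Bo/Li (adjusted p = 0.1227), 1.36 ± 0.35 for Ov/Li (adjusted p = 0.1245) and 1.33 ± 0.35 for La/Li (adjusted p = 0.2197), all by limma, and none passed the threshold. Among the members it had the smallest adjusted p in each of these 3 pairs. Li lay below all other 9 libraries in 3.45% of the lncRNAs tested, and among the members in XR_843402.1 and XR_843841.1.

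XR_840019.1 (LOC105113775) was next, with a mean of 4525 FPKM, and ran the other way. It was at 6891, 5924 and 6029 FPKM in Li1, Li2 and Li3, at 4671, 5167 and 2263 FPKM in La1, La2 and La3, at 3572, 4876 and 2155 FPKM in Ov1, Ov2 and Ov3, and at 4173, 4576 and 4009 FPKM in Bo1, Bo2 and Bo3. The Li libraries were the 3 highest, and La3 and Ov3 the 2 lowest. The log2 change was -0.90 ± 0.37 (SE) for Ov/Li (limma, adjusted p = 0.3111), and it was -0.59 without La3 and Ov3. With the numbered La and Ov libraries treated as pairs, this change passed the threshold (limma, adjusted p = 0.03365), as did the F test (adjusted p = 0.04409). Over the 21 alternatives run, its adjusted p for Ov/Li ranged from 0.03365 to 0.6951, and it passed in that 1 only. Li has no part in those pairs, and the spread applied there leaves out the range that La and Ov share by number. Li lay above all other 9 libraries in 2.88% of the lncRNAs tested, and among the members in XR_840019.1, XR_840845.1 and XR_838961.1.

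Between them, XR_843402.1 and XR_840019.1 held from 15.6% (Bo3) to 31.2% (Ov1) of the lncRNA FPKM of a library. The ratio of XR_843402.1 to XR_840019.1 was below 1 in all 3 Li libraries, at 0.27, 0.43 and 0.62. It was 1.08, 1.504 and 3.13 in La, 2.17, 1.30 and 2.80 in Ov and 1.39, 1.83 and 0.96 in Bo. The ratio was therefore lower in every Li library than in any other library. This ratio was looked at after the values were seen and was not tested.

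**Figure D3:**
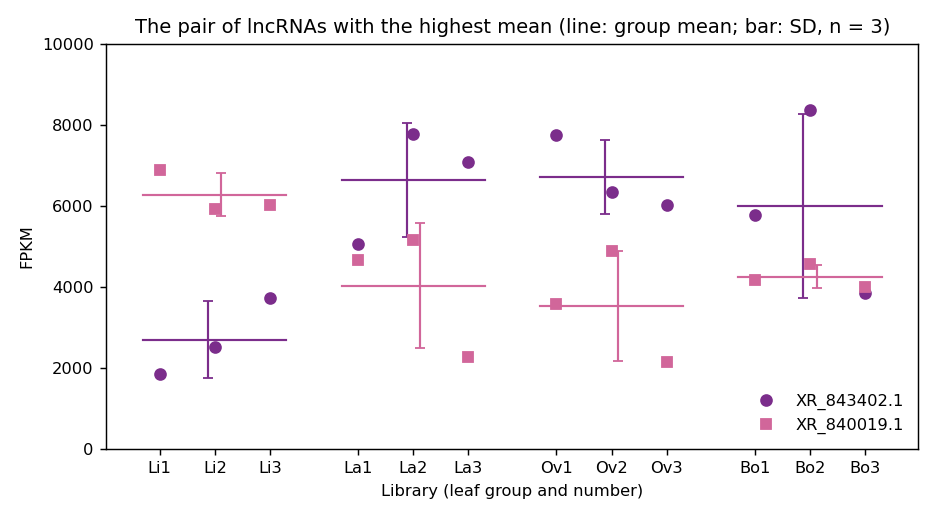
FPKM (linear axis from 0) of XR_843402.1 and XR_840019.1 in the 12 libraries; the horizontal lines are the group means and the bars their SD (n = 3). XR_840019.1 lies above XR_843402.1 in the 3 Li libraries, with group means of 6281 and 2697 FPKM, and below it in 8 of the other 9 libraries, Bo3 being the exception.

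The 3 transcripts of LOC105117014, XR_840660.1, XR_840662.1 and XR_840661.1, had ranks 3 to 5, and were far lower in 2 libraries than in the other 10. XR_840660.1 was at 3678, 4727 and 6404 FPKM in Li1, Li2 and Li3, at 4677, 5625 and 64.5 FPKM in La1, La2 and La3, at 3801, 6438 and 58.8 FPKM in Ov1, Ov2 and Ov3, and at 5732, 5477 and 7120 FPKM in Bo1, Bo2 and Bo3. XR_840662.1 was at 3135, 5746 and 4847 FPKM in Li, at 3046, 1886 and 4.18 FPKM in La, at 415, 3514 and 3.73 FPKM in Ov, and at 2817, 788 and 3495 FPKM in Bo, in the same order of libraries. XR_840661.1 was at 3194, 2646 and 3263 FPKM in Li, at 2427, 3011 and 1.56 FPKM in La, at 510, 3684 and 1.22 FPKM in Ov, and at 2816, 849 and 7178 FPKM in Bo. La3 and Ov3 were the 2 lowest libraries for all 3 transcripts, and the other 10 libraries lay far above them. The highest over the lowest library was 121-fold for XR_840660.1, 1541-fold for XR_840662.1 and 5867-fold for XR_840661.1, the widest range of any member.

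Summed over its transcripts, LOC105117014 had 12546 ± 2307 FPKM in Li (10007 to 14513), 6914 ± 5930 FPKM in La (70.3 to 10522), 6142 ± 6896 FPKM in Ov (63.8 to 13636) and 12091 ± 5377 FPKM in Bo (7114 to 17794; SD, n = 3 each). The gene took 35.4% of the lncRNA FPKM of Bo3 but 0.19% of that of La3 and 0.13% of that of Ov3. Outside La3 and Ov3 its share was 13.01% or more. The groups overlapped in all pairs, and in a fit on gene sums limma gave a log2 change of -0.14 ± 2.03 (SE) for Bo/Li (adjusted p = 0.9834), -2.94 ± 2.03 for Ov/Li (adjusted p = 0.4653) and -2.66 ± 2.03 for La/Li (adjusted p = 0.6598).

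With the numbered La and Ov libraries treated as pairs, several calls on these transcripts changed. XR_840660.1 then passed for La/Li (limma, adjusted p = 0.0113), Ov/Li (adjusted p = 0.008197), Bo/La (adjusted p = 0.001537), Bo/Ov (adjusted p = 0.001159) and the F test (adjusted p = 0.001153), and XR_840662.1 and XR_840661.1 passed for Ov/Li (adjusted p = 0.03365 and 0.03441) and in the F test (adjusted p = 0.03237 and 0.02955). Each of these passed in 1 of the alternatives run, and the highest adjusted p over the alternatives lay between 0.7493 and 1 for these tests. That fit takes the difference that La3 and Ov3 share out of the residual spread, while Li and Bo have no part in the pairs, so the spread it applies to a comparison with Li or Bo leaves out the range of LOC105117014 within La and within Ov. Without La3 and Ov3, no member was called in any pair.

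The division between the 3 transcripts also changed with the level. XR_840660.1 made up 36.03% to 53.5% of the gene's FPKM in 8 libraries, 80.4% in Ov1, 77.0% in Bo2, and 91.8% and 92.2% in La3 and Ov3. The 4 libraries with the lowest sums had the 4 highest parts of XR_840660.1. Reads that match several transcripts of a gene are divided between them by the estimate the authors used, so the parts are less certain than the sum. In the RefSeq table LOC105117014 overlaps LOC105117012, another lncRNA gene, whose transcript was at 77.7 FPKM in La3 and 98.01 FPKM in Ov3, within its range of 34.4 to 203.5 FPKM, and was not low there.

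**Figure D4:**
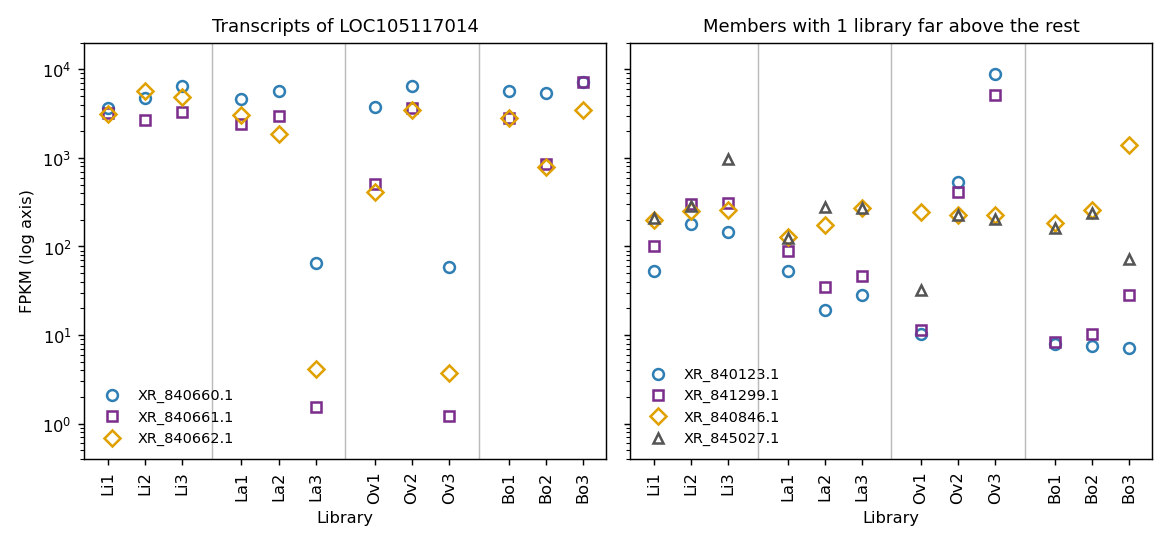
FPKM (log axis) by library for the 3 transcripts of LOC105117014 (left) and for the 4 members whose highest library was more than 2 times the next (right). In the left panel La3 and Ov3 lie at 64.5 FPKM or below for all 3 transcripts; in the right panel XR_840123.1 and XR_841299.1 reach 8828 and 5075 FPKM in Ov3, XR_840846.1 reaches 1393 FPKM in Bo3 and XR_845027.1 reaches 960 FPKM in Li3.

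XR_840123.1 (LOC105114387, rank 10) and XR_841299.1 (LOC105120297, rank 12) owed their place to Ov3. XR_840123.1 was at 52.9, 178 and 147 FPKM in Li1, Li2 and Li3, at 52.3, 19.3 and 28.04 FPKM in La1, La2 and La3, at 10.4, 533 and 8828 FPKM in Ov1, Ov2 and Ov3, and at 7.95, 7.50 and 7.11 FPKM in Bo1, Bo2 and Bo3. XR_841299.1 was at 101, 304 and 314 FPKM in Li, at 88.7, 34.9 and 46.4 FPKM in La, at 11.5, 410 and 5075 FPKM in Ov, and at 8.36, 10.4 and 28.01 FPKM in Bo. Ov3 was 16.6 times the next library for XR_840123.1 and 12.4 times for XR_841299.1. Their medians over the 12 libraries were 40.2 and 67.5 FPKM, and both left the list of 30 when medians were ranked or when Ov3 was left out.

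The ratio of XR_840123.1 to XR_841299.1 lay between 0.25 in Bo3 and 1.74 in Ov3, a 6.86-fold range, while their own levels covered 1242-fold and 607-fold. Within Bo the 2 transcripts ran in opposite orders. In Ov3 they made up 28.3% of the lncRNA FPKM, against 0.04% to 1.96% in the other 11 libraries. Leaving both out of the members and of the total, the share of the remaining members in Ov was 68.6 ± 6.25% (SD, n = 3). Bo lay below all other 9 libraries in 0.791% of the lncRNAs tested, and among the members in XR_840123.1 alone. The log2 change for Bo/Ov was -5.47 ± 1.72 (SE, adjusted p = 0.3039) for XR_840123.1 and -4.35 ± 1.59 (adjusted p = 0.3473) for XR_841299.1, by limma. Without Ov1 both passed (limma, adjusted p = 0.005372 and 0.01743), as did XR_840123.1 in the F test (adjusted p = 0.02664), and without Ov3 the change of XR_840123.1 was -3.20. Over the 21 alternatives the adjusted p for Bo/Ov ranged from 0.005372 to 0.5848 for XR_840123.1 and from 0.01743 to 0.5993 for XR_841299.1. For Bo/Li the changes were -3.73 ± 1.72 (adjusted p = 0.2499) and -3.88 ± 1.59 (adjusted p = 0.2073). In a limma fit on Li and Bo alone, XR_840123.1 passed for Bo/Li (adjusted p = 0.02845), and over the 21 alternatives its adjusted p ranged up to 0.4907.

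A highest library more than 2 times the next was seen in 4 of the 30 members and in 9.49% of all lncRNAs tested. Besides XR_840123.1 and XR_841299.1 these were XR_840846.1 (LOC105117966), with 1393 FPKM in Bo3 and 128 to 269 FPKM elsewhere, and XR_845027.1 (LOC105139655), with 960 FPKM in Li3 and 32.5 to 286 FPKM elsewhere. XR_845027.1 lies next to the protein-coding gene LOC105139659 in the RefSeq table. That neighbour was at 328, 1975 and 2207 FPKM in Li1, Li2 and Li3, was also highest in Li3, and was also lowest in Ov1, at 15.5 FPKM. These members were picked out after their values were seen.

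XR_839638.1 (LOC105111655) and XR_841589.1 (LOC105121655), ranks 6 and 7, were the steadiest of the 10 most abundant. XR_839638.1 was at 1368, 1011 and 876 FPKM in Li, at 772, 1306 and 779 FPKM in La, at 633, 1344 and 883 FPKM in Ov, and at 820, 802 and 1446 FPKM in Bo. XR_841589.1 was at 1221, 1038 and 887 FPKM in Li, at 742, 1059 and 775 FPKM in La, at 717, 1202 and 899 FPKM in Ov, and at 1018, 1084 and 1305 FPKM in Bo. All groups overlapped for both. Their ratio (XR_839638.1 over XR_841589.1) lay between 0.74 in Bo2 and 1.23 in La2. XR_841589.1 was the narrowest of all members, its highest library being 1.82 times its lowest. It overlaps LOC105121654, a lncRNA gene at 0.48 FPKM or less in every library, and its other neighbour in the table, the protein-coding gene LOC105121653, was at 10855 to 16206 FPKM.

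XR_843236.1 (LOC105130439) and XR_843143.1 (LOC105129829), ranks 8 and 9, were highest in La3 and Ov3. XR_843236.1 was at 384, 350 and 810 FPKM in Li, at 578, 815 and 1998 FPKM in La, at 1162, 603 and 2067 FPKM in Ov, and at 618, 1123 and 338 FPKM in Bo. XR_843143.1 was at 239, 568 and 1553 FPKM in Li, at 567, 649 and 1815 FPKM in La, at 863, 559 and 1697 FPKM in Ov, and at 386, 628 and 377 FPKM in Bo. In XR_843143.1 the library Li3 was nearly as high as these, whereas in XR_843236.1 it was at 810 FPKM. The gene of XR_843236.1 overlaps the protein-coding LOC105130440, which was at 6.41 to 10.1 FPKM, so the lncRNA was the more abundant of the 2 in every library.

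The number-3 libraries of La and Ov moved alike in many members. La3 and Ov3 both lay below the other 4 La and Ov libraries in 8 of 30 members, against 14% of the lncRNAs tested. These were XR_840019.1, the 3 transcripts of LOC105117014, XR_840845.1, XR_843183.1, XR_842233.1 and XR_838961.1. They both lay above those 4 libraries in 13 members, against 21.9% of the lncRNAs tested. Among the 13 were XR_843236.1, XR_843143.1, XR_843841.1, XR_839651.1 and both assembled members. Over the 3 groups La, Ov and Bo, library 3 was the lowest of its group in 5 members (9.92% of those tested) and the highest in 7 members (17.6%). Of the members, 8 had their highest library in La3 (7.91% of those tested), 7 in Bo3 (24.7%) and 5 in Ov3 (12.4%). The lowest library was La3 in 1 member (6.61%), and Ov3 (9.63%), Bo3 (8.63%) and Bo1 (5.39%) in 5 members each. These patterns were seen in the values first, and what the number-3 libraries share was not tested.

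**Figure D5:**
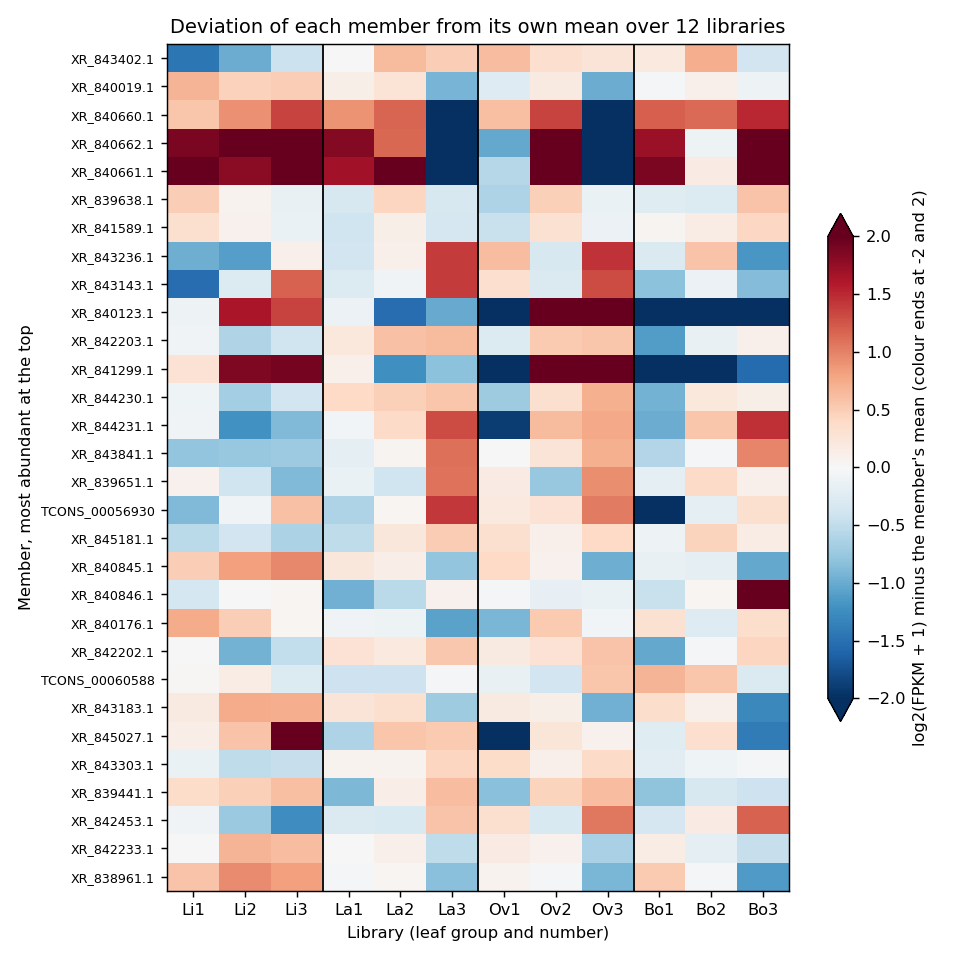
Deviation of each member (rows, most abundant at the top) from its own mean on the log2(FPKM + 1) scale in the 12 libraries (columns, groups parted by black lines); red is above and blue below the member's mean, and colours end at -2 and 2. La3 and Ov3 show the same sign in most rows: both are below the other La and Ov libraries in 8 members and above them in 13.

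The level of a member within its group could be narrow as well. XR_843303.1 (LOC105130768, rank 26) had the next smallest range, with 228, 175 and 182 FPKM in Li, 264, 263 and 338 FPKM in La, 325, 270 and 328 FPKM in Ov, and 217, 235 and 245 FPKM in Bo. La and Ov lay above Li in all libraries, and Bo lay below La and below Ov in all libraries. The log2 change was 0.66 ± 0.27 (SE) for Ov/Li (limma, adjusted p = 0.3099). Of its log2 variance, 77.5% lay between groups, the highest of the members, where the median of the members was 35.8% and that of all lncRNAs tested 34.8%. More of the variance lay between than within groups in 6 of 30 members and in 371 of the 1391 lncRNAs tested.

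Other members lay above Li in 1 or more of the older groups. XR_843841.1 (LOC105133677, rank 15) was at 244 to 255 FPKM in Li, and at 371 to 911 FPKM in La, 421 to 695 FPKM in Ov and 281 to 835 FPKM in Bo. Its log2 change was 1.08 ± 0.45 (SE) for Ov/Li (limma, adjusted p = 0.3214) and 0.88 ± 0.45 for Bo/Li (adjusted p = 0.2972). XR_845181.1 (LOC105140359, rank 18) was at 387 to 473 FPKM in Ov and 335 to 490 FPKM in Bo, above its 231 to 275 FPKM in Li, while La overlapped Li. It overlaps the protein-coding LOC105140401, which was at 7.91 FPKM or less. These members and XR_843402.1 were the 3 that were higher in Bo than in Li with no overlap.

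XR_840845.1 (LOC105117961, rank 19) and XR_838961.1 (LOC105107925, rank 30) had, like XR_840019.1, their 3 highest libraries in Li. XR_840845.1 was at 454 to 632 FPKM in Li, at 186 to 376 FPKM in La, at 164 to 427 FPKM in Ov and at 159 to 291 FPKM in Bo. Its log2 change for Bo/Li was -1.21 ± 0.43 (SE, limma, adjusted p = 0.1617). XR_838961.1 was at 289 to 375 FPKM in Li, at 109 to 199 FPKM in La, at 103 to 203 FPKM in Ov and at 88.4 to 280 FPKM in Bo, and its log2 change for Ov/Li was -1.07 ± 0.45 (SE, limma, adjusted p = 0.3345). XR_839441.1 (LOC105110268, rank 27) was at 134 to 188 FPKM in Bo and at 305 to 357 FPKM in Li, with La and Ov on both sides. Its log2 change for Bo/Li was -0.996 ± 0.458 (SE, limma, adjusted p = 0.2499), and it passed when the La and Ov numbers were treated as pairs (limma, adjusted p = 0.04759) and in no other alternative (up to 0.4886). Bo and Li have no part in those pairs. The spread applied there leaves out the range that La (126 to 360 FPKM) and Ov (132 to 360 FPKM) share by number. The gene of XR_839441.1 overlaps the protein-coding LOC105110251, at 18.4 to 65.1 FPKM.

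LOC105125224 gave the members XR_842203.1 (rank 11) and XR_842202.1 (rank 22). XR_842203.1 was at 357 to 518 FPKM in Li, at 626 to 845 FPKM in La, at 449 to 801 FPKM in Ov and at 250 to 582 FPKM in Bo. Its log2 change was -0.86 ± 0.38 (SE) for Bo/La (limma, adjusted p = 0.4248) and 0.83 ± 0.38 for La/Li (adjusted p = 0.5259), and La did not overlap Li or Bo. XR_842202.1 made up 28.01% to 41.1% of the gene's FPKM, so the split between the 2 transcripts was steady, unlike that of LOC105117014. For the summed gene, Li had 634 ± 149 FPKM, La 1113 ± 143 FPKM, Ov 1029 ± 236 FPKM and Bo 698 ± 289 FPKM (SD, n = 3 each).

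XR_842203.1 also kept a narrow ratio to XR_844230.1 of another gene, LOC105135719 (rank 13), which was at 244 to 772 FPKM. The ratio (XR_842203.1 over XR_844230.1) ran from 0.90 in Bo2 to 1.57 in Ov1. Of the 435 pairs of members, 5 kept their ratio within 2-fold over the 12 libraries, against 39 of 406 pairs among the lncRNAs ranked 31 to 60 that were above 0 in all libraries. Beside the pairs already named these were XR_843183.1 (LOC105130085) with XR_838961.1 and with XR_840845.1. The pairs were picked out after their values were seen, share the same 12 libraries and carry no test. Whether any of these transcripts share sequence, and so reads, was not examined.

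XR_844230.1 lies near XR_844231.1 (LOC105135720, rank 14) in the RefSeq table, with LOC105135721 between them, a lncRNA gene that overlaps LOC105135720 and is listed at 0 in all libraries. XR_844231.1 ranged more widely than its neighbour, from 102 FPKM in Ov1 to 1063 FPKM in Bo3. Both were higher in every La library than in any Li library, at 623 to 691 FPKM in La and 295 to 445 FPKM in Li for XR_844230.1, and at 371 to 948 FPKM in La and 166 to 367 FPKM in Li for XR_844231.1. For La/Li the log2 change was 0.86 ± 0.42 (SE, limma, adjusted p = 0.5369) for XR_844230.1, and 1.26 ± 0.77 (adjusted p = 0.6234) for XR_844231.1.

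The assembled members had between 1.58% and 5.34% of the members' FPKM in a library. TCONS_00056930 (rank 17) comes from an intergenic locus by the authors' class code, on the minus strand of scaffold NW_011500151.1 from 136709 to 138215 in PopEup_1.0, with 3 exons and 792 bases. It was at 199, 351 and 557 FPKM in Li, at 240, 379 and 988 FPKM in La, at 423, 452 and 762 FPKM in Ov, and at 83.4, 326 and 462 FPKM in Bo. In each of the 4 groups library 3 was the highest, and all groups overlapped.

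TCONS_00060588 (rank 23) lies antisense to an exon of LOC105112984 by the authors' class code, on the plus strand of scaffold NW_011500271.1 from 97515 to 100211, with 2 exons and 2163 bases. It was at 280, 309 and 230 FPKM in Li, at 207, 208 and 270 FPKM in La, at 251, 212 and 406 FPKM in Ov, and at 447, 407 and 226 FPKM in Bo. Its range of 2.15-fold was the next narrowest after those of XR_841589.1 and XR_843303.1. A second assembled transcript of the locus, TCONS_00060587, ranked 37 at 102 to 225 FPKM, and the ratio of TCONS_00060588 to it stayed between 1.55 and 2.08. The mRNA on the other strand was at 2.16 and 2.77 FPKM in Bo1 and Bo2, and at 0.31 FPKM or less in the other 10 libraries. TCONS_00060588 was at 447 and 407 FPKM in Bo1 and Bo2, but also at 406 FPKM in Ov3, where the mRNA was at 0.31 FPKM. TCONS_00060587 was highest in Ov3, at 225 FPKM. The strands were set side by side after their values were seen, and a relation between them was not tested. The libraries and the estimate kept strand, per the study's methods.

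The remaining members are given by their ranges. XR_839651.1 (LOC105111756, rank 16) was at 219 to 856 FPKM, highest in La3 and Ov3, and its gene overlaps the protein-coding AT-IE, at 17.4 to 33.4 FPKM. XR_840176.1 (LOC105114641, rank 21) was at 141 to 496 FPKM, and XR_843183.1 (rank 24) at 100 to 411 FPKM. XR_842453.1 (LOC105126573, rank 28) was at 95.4 to 514 FPKM, lowest in Li3 and highest in Bo3, and XR_842233.1 (LOC105125398, rank 29) at 141 to 358 FPKM. None of these passed the threshold in any pair.

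What the members share beyond their level was limited. Of the 25 RefSeq genes, 8 overlapped the gene before or after them in the table, 32% against 41.1% of the 3179 annotated lncRNA genes listed. Overlap was read from starts and ends alone, without a check of scaffold or strand. Of the 27 genes, 24 had a single listed transcript (88.9%), against 87.3% of all lncRNA genes. Annotated transcripts were 93.3% of the members, 90.1% of all lncRNAs listed and 78.0% of those tested. Of the 4460 lncRNAs listed, 3310 were above 0 in any library, so shares of those listed count undetected transcripts too. None of the 1149 circular RNAs listed came from a member's transcript or overlapped an assembled member. The spread of a member over the 12 libraries had a median SD of 0.66 on the log2 scale (0.29 to 4.01), where the lncRNAs ranked 31 to 100 had 0.54, those ranked 31 to 500 had 0.70 and all lncRNAs tested 0.57. The highest library was over 10 times the lowest in 9 of 30 members (30%), against 14.3% of the lncRNAs ranked 31 to 100, 38.1% of those ranked 31 to 500 and 58.2% of all tested, where transcripts with a library at 0 were counted in. It was under 2 times the lowest in 2 members (6.67%), XR_841589.1 and XR_843303.1. This was so in 7.14% of the lncRNAs ranked 31 to 100, 4.68% of those ranked 31 to 500 and 2.01% of all tested.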

How the data were processed

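Total RNA from 12 leaf samples (3 each of Li, La, Ov and Bo) was depleted of ribosomal RNA and sequenced by the authors as strand-specific paired-end libraries. The deposited values of mRNAs and lncRNAs are in FPKM, which the authors estimated with Bowtie2 and eXpress on RefSeq transcripts of PopEup_1.0. Reads that matched several transcripts were divided between them, so isoforms and overlapping or similar genes share reads. lncRNAs with TCONS_ identifiers came from the authors' assembly (TopHat2, Cufflinks), out of which short, single-exon and possibly coding transcripts had been removed. The circRNA files deposited hold RPM of junction reads, and only the identities of circRNAs were used here. Depth per library is unknown from FPKM, which sets no interval on a single value.

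Members were ranked by mean FPKM, and shares are of summed lncRNA FPKM. lncRNAs with a mean of at least 0.5 FPKM were tested with limma 3.58.1 (R 4.3.3) on log2(FPKM + 1), a scale that understates the change of low values, with 4 group means over 12 libraries, variances following the mean, two-sided p-values and Benjamini-Hochberg adjustment over 1391 lncRNAs within each pair. In a pair such as Bo/Li, changes are of the older group over the younger. The authors used DESeq, which needs read numbers. The script was tested on simulated data. Values in all 12 libraries were given for the 10 members of highest mean, any member called and the 3 with the largest and the 3 with the smallest ratio of highest to lowest library, other members by range, and those singled out after their values were seen are named as such. The members, lists and tests were chosen with earlier results of these data known.

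Same-numbered La and Ov libraries deviated from their group means together over the lncRNAs tested (correlations across lncRNAs of 0.25, 0.57 and 0.63). Their numbers were therefore taken to pair them, which rests on the data, since the labels name no shared tree or batch. The deviations within a group cancel out, so the 3 correlations are not independent. Over the members alone, Ov1 was closer to La2 (0.55) than to La1 (0.25). Ov2 was nearly as close to La1 (0.89) as to La2 (0.93), and Ov3 went with La3 (0.83). Among the members, the likeness of La3 and Ov3 was thus clearer than a pairing of all numbers. Groups were taken as paired in the alternative fit where all 3 correlations of same-numbered libraries over the lncRNAs tested were over 0.1. No other pair of groups reached this, although the correlations of Ov and Bo were all positive (0.203, 0.027 and 0.148). Gene names, biotypes and neighbours came from a RefSeq table of a later version of PopEup_1.0, in which all 4018 annotated lncRNAs were matched and from which no positions are given. Neighbours and overlaps of annotated genes were read from consecutive entries by start and end. Scaffold and strand were not checked, so an overlap named here may be sense or antisense, or join entries of different scaffolds. Alternatives were another pseudocount, no filter, 2 scalings, fits on single pairs of groups, replicate blocks, unadjusted p, each library left out and other choices of members.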

Additional observations from a re-analysis of the deposited data

How the results depend on the processing

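Ranking by mean share chose the same 30 transcripts, so the shares by group were the same by construction. The shares moved when the number or kind of members changed. With the 10 highest, Li had 57.5%, La 52.6%, Ov 53.4% and Bo 58.4%, and with the 100 highest 87.7%, 85.1%, 85.8% and 85.5% in that order. With 30 members by median the share in Ov was 63.0%. Without XR_843402.1 in members and total, La had 64.3%, Ov 67.0% and Bo 68.3%, and without XR_840123.1 and XR_841299.1, chosen after seeing the data, 68.6% in Ov. With members chosen after leaving out 1 library in turn, shares ranged from 71.6% to 72.4% in Li, 70.2% to 71.1% in La, 63.1% (without Ov3) to 72.4% in Ov and 72.9% to 73.7% in Bo.

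Of the 16 changes of members with an unadjusted p under 0.05, none reversed over 336 recomputed values. That is no evidence of stability, since the 16 were picked by their p in these same libraries. Also, the block of La and Ov, fits on a pair alone and leaving out a library of another group cannot alter a log2 change. In the recomputed values 3 changes came to pass the threshold. These were XR_840019.1 for Ov/Li at -0.90 under the block of La and Ov, and XR_840123.1 and XR_841299.1 for Bo/Ov at -7.99 and -6.63 without Ov1. With the replicate block of La and Ov, La/Li had 3 lncRNAs called (1 member), Ov/Li 32 (4), Bo/Li 44 (1), Bo/La 5 (1), Bo/Ov 5 (1) and the F test 22 (4), and the block changed no call for Ov/La. With a replicate block over the 4 groups, whose numbers do not pair Li or Bo with the others, 2 were called for La/Li and 3 for Ov/Li. With a pseudocount of 0.1, 2 were called for La/Li and 23 for Bo/Li. With no filter La/Li had 3, Ov/Li 4 and Bo/Li 9. Scaling to total lncRNA FPKM gave 4 in the F test. Fits on the groups of a pair alone gave 4 for Ov/Li, 5 (1 member) for Bo/Li and 1 for Bo/La. At an unadjusted p under 0.05 La/Li had 128 (4 members), Ov/Li 193 (6), Bo/Li 280 (3), Ov/La 40 (0), Bo/La 159 (1), Bo/Ov 156 (2) and the F test 213 (2).

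With 1 library left out, La/Li had 0 to 18 calls, Ov/Li 0 to 21, Bo/Li 2 to 31, Ov/La 0, Bo/La 2 to 18, Bo/Ov 1 to 14 and the F test 2 to 22. Members among them numbered 0 in each pair except 0 to 2 for Bo/Ov and 0 to 1 in the F test, both without Ov1. Chosen after seeing the data, leaving out La3 and Ov3 together gave 0 for La/Li, 1 for Bo/Ov and 3 in the F test, and leaving out La3, Ov3 and Bo3 gave La/Li 3, Ov/Li 2, Bo/Li 38, Bo/La 16, Bo/Ov 16 and the F test 18. Summing the transcripts of a gene gave 3 for La/Li. The cause of these moves was not tested.

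In the main fit, with 3 libraries a group, the transcripts of LOC105117014 had a standard error of 1.79 or more on the log2 scale. That spread is pooled over the 4 groups and includes La3 and Ov3. Differences of that size could not be called for these transcripts in that fit. How large a difference would be called was not computed.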
